A study of Mus musculus with 6 samples.

Results

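The genes described here encode peroxisomal enzymes and peroxins, the proteins that build and maintain the peroxisome. They were taken by symbol from a fixed list, and all 36 listed symbols were found among the 23282 rows of liver counts. All 36 passed the filter on low counts, which kept 12505 rows. The list was split by role into 12 peroxins, 4 enzymes of the core beta-oxidation spiral, 5 enzymes of branched-chain, bile acid and alpha-oxidation, 9 thioesterases, Nudix hydrolases and auxiliary enzymes, 5 oxidases and other matrix enzymes, and 1 membrane transporter.

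The study asked how atractylodin, a polyacetylene of Atractylodes rhizomes, affects diet-induced fatty liver. Male mice, C57BL/6N in the design text and C57BL/6 in the sample labels, started a high-fat diet at 8 weeks of age and were fed it freely for 12 weeks. From week 8 of the diet, for 4 weeks and on 5 days a week, 3 sampled livers received oral atractylodin at 10 mg/kg and 3 received a vehicle whose composition is not given in the sources used here. Both groups ate the high-fat diet, so every comparison is of drug against vehicle within diet-fed mice, and lean mice were not analysed here. Libraries are called atractylodin 1 to 3 and vehicle 1 to 3, after their labels. The labels do not say whether each library is from a mouse of its own, so a p-value reflects only how far the libraries spread, which may be technical.

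Peroxisomes shorten very-long-chain, branched-chain and dicarboxylic fatty acids and the side chain of bile acid precursors, and they oxidize urate and glycolate. Their first oxidation step releases hydrogen peroxide, which catalase breaks down, and their products leave as carnitine esters or as free acids. Their matrix proteins are made in the cytosol and imported by peroxins. In mouse liver, fatty acids and fibrate drugs acting on the nuclear receptor PPARalpha induce the beta-oxidation enzymes and increase peroxisome number.

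Total counts were 9871762 to 12565393 in the atractylodin libraries, against 1831461 to 12111553 in the vehicle libraries, and vehicle 1 was the shallowest of all. Members took 1.28% to 1.45% of counts in atractylodin libraries and 1.42% to 1.5% in vehicle libraries. The least counted member had 39 to 76 counts per atractylodin library and 15 to 92 per vehicle library, so every member lay above the floor of 3 counts. The 6 hepatocyte markers summed to 87970 to 95604 CPM (counts scaled to library size, with TMM factors) with atractylodin and 91439 to 100630 CPM with vehicle. In whole liver, fewer cells of a type and less RNA per cell cannot be told apart. Markers of other cells were also measured. The 6 cholangiocyte markers summed to 33.1 to 35.7 CPM with atractylodin, against 64.6 to 81.3 CPM with vehicle. Of the 4 tested, 3 fell, namely Tstd1, Sox9 and Spp1. Epcam averaged 1.82 CPM with atractylodin and 1.38 CPM with vehicle and did not pass (log2 fold change 0.05, edgeR adjusted p = 0.969). Krt7 and Krt19, with 18 and 44 counts over all libraries, were too sparse to be tested. The 6 sinusoidal endothelial markers summed to 237 to 265 CPM with atractylodin and 260 to 272 CPM with vehicle, with 2 falls and 1 rise. The 6 Kupffer cell markers summed to 200 to 304 CPM with atractylodin and 244 to 338 CPM with vehicle, and the 6 stellate cell markers to 314 to 433 CPM with atractylodin and 364 to 462 CPM with vehicle. The edgeR test called 0 of the 6 in each list, and an unadjusted p under 0.05 was found for 1 Kupffer cell marker and 0 stellate cell markers. The 4 markers of kidney, another organ rich in peroxisomes, summed to at most 5.43 CPM with atractylodin and 5.92 CPM with vehicle, and Slc34a1 had no count. The part of these cell markers in the results on the members was not tested.

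Of the 36 members, 5 passed the edgeR test, a larger share than among all rows. Whether the shares differ was not tested, and a member that did not pass is not shown to be unchanged. Hacl1, of alpha-oxidation, rose with atractylodin. Pecr, Crot and Nudt7, of the handling of acyl-CoA and coenzyme A, fell, and so did Pex5, the import receptor. These 5 of 36 members are 13.9%, against 7.25% of all 12505 rows that passed an adjusted p of 0.05 in edgeR's quasi-likelihood test. By direction, 1 of 36 rose where 3.92% of all rows rose, and 4 of 36 fell where 3.33% of all rows fell. An unadjusted p under 0.05 in edgeR was found for 13 of the 36, where 21.5% of all rows had one. The median log2 fold change of the members was -0.04, beside 0.00 (-0.0015) over all rows, with 16 estimates above 0 and 20 below, where 49.8% of all rows had an estimate above 0. Scaling by total counts alone called 1 member higher and 6 lower, and 312 rows higher and 707 lower over all, against 490 and 416 with the scaling used. Atractylodin and vehicle libraries did not overlap for 14 members, 6 higher and 8 lower, which is 38.9% beside 26.2% of all rows. Without vehicle 1 the test called 2 of 36 members, both lower (5.56%, beside 3.83% of the rows tested then).

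**Figure D1:**
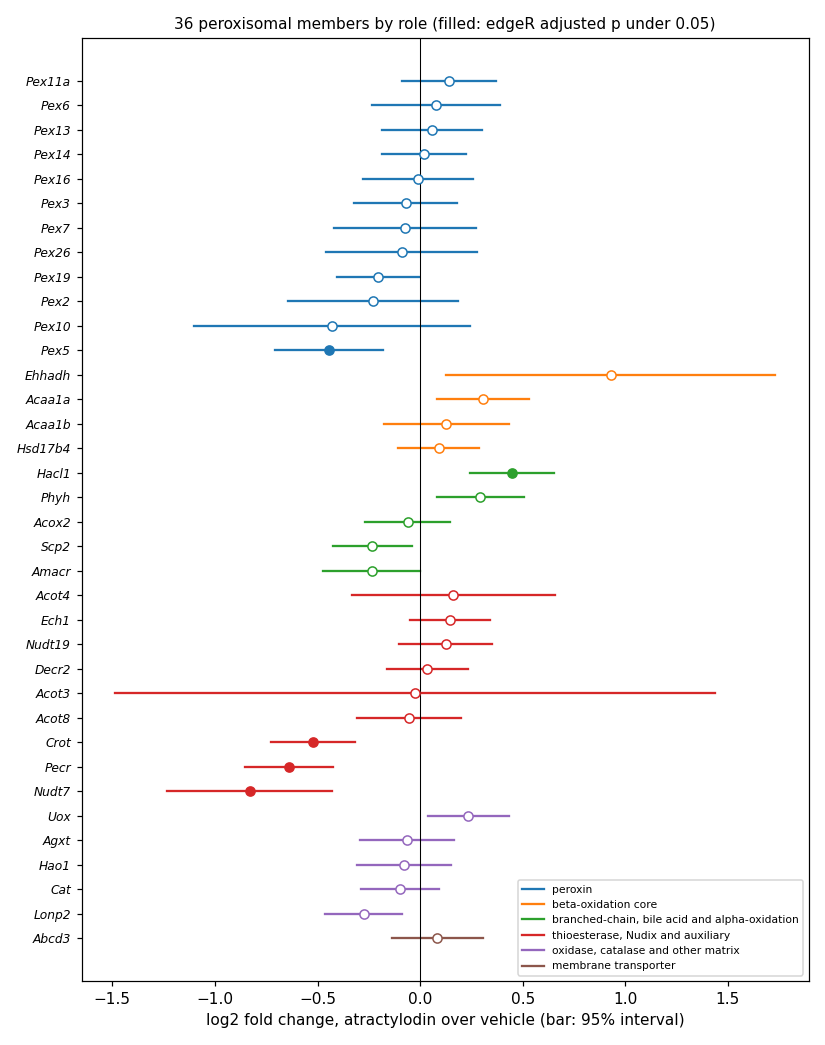
Log2 fold change of each of the 36 members, atractylodin over vehicle (horizontal axis), with its 95% interval from the edgeR fit, coloured by role and ordered within a role. The filled points are the 5 members with an adjusted p under 0.05, of which Hacl1 lies to the right of 0 and Pecr, Crot, Nudt7 and Pex5 to the left.

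The falls that passed with each library left out in turn were those of Pecr and Crot. Pecr encodes peroxisomal trans-enoyl-CoA reductase, which reduces the double bond of trans-2-enoyl-CoA, a step of fatty acid elongation (GRCm38 chromosome 1, 72259167 to 72284314, minus strand). It stood at 159, 152 and 184 CPM in atractylodin 1 to 3, against 289, 238 and 249 CPM in vehicle 1 to 3. The highest atractylodin library was below the lowest vehicle library. Pecr fell 1.56-fold (log2 fold change -0.64 ± 0.10, SE, adjusted p = 0.000945 in edgeR).

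Crot encodes carnitine octanoyltransferase, which turns the shortened acyl-CoA of the peroxisome into acylcarnitine for export to mitochondria (chromosome 5, 8966033 to 8997324, minus strand). Its level was 310, 254 and 280 CPM in the atractylodin libraries and 433, 388 and 395 CPM in the vehicle libraries. The groups did not overlap, and the gap between them was wider than the range within either of them. The fall was 1.44-fold (log2 fold change -0.52 ± 0.10, SE, adjusted p = 0.00308 in edgeR). Gm27941 overlaps Crot on its own strand, Gm15610 and Gm37153 overlap it on the opposite one, and D230017M19Rik lies opposite Pecr. With 1 library left out, the adjusted p was at most 0.0126 for Pecr and 0.0299 for Crot, both without vehicle 1.

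Nudt7 had the lowest fold change of the 36. It encodes a Nudix hydrolase that cleaves coenzyme A and acyl-CoA inside the peroxisome (chromosome 8, 114133557 to 114154739, plus strand). It was counted at 106, 81.3 and 139 CPM in the atractylodin libraries, against 199, 181 and 200 CPM in the vehicle libraries. The 3 vehicle libraries lay close together and above all 3 atractylodin libraries, which ranged over 1.7-fold among themselves. Nudt7 fell 1.78-fold (log2 fold change -0.83 ± 0.17, SE, adjusted p = 0.0276 in edgeR). The call was lost without atractylodin 1 (adjusted p = 0.142), without vehicle 1 (0.107), without vehicle 2 (0.0813) and without vehicle 3 (0.0880), with estimates of -0.87 to -0.80 in those fits.

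The related Nudix gene Nudt19, also a coenzyme A hydrolase, stood at 50.3, 48.6 and 48.6 CPM with atractylodin, against 45.2, 46.4 and 43.7 CPM with vehicle. Its libraries did not overlap either, in the other direction, but the estimate of 0.12 had a 95% interval of -0.10 to 0.35 and did not pass (edgeR adjusted p = 0.556). Ech1, a dienoyl-CoA isomerase of peroxisomes and mitochondria, was at 385, 420 and 371 CPM with atractylodin and 366, 334 and 366 CPM with vehicle, again without overlap and without passing (log2 fold change 0.14, edgeR adjusted p = 0.396). The other 4 of the 9 thioesterase, Nudix and auxiliary genes had adjusted p of 0.735 or more. They were the acyl-CoA thioesterases Acot3, Acot4 and Acot8 and the dienoyl-CoA reductase Decr2, with estimates of -0.06 to 0.16.

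**Figure D2:**
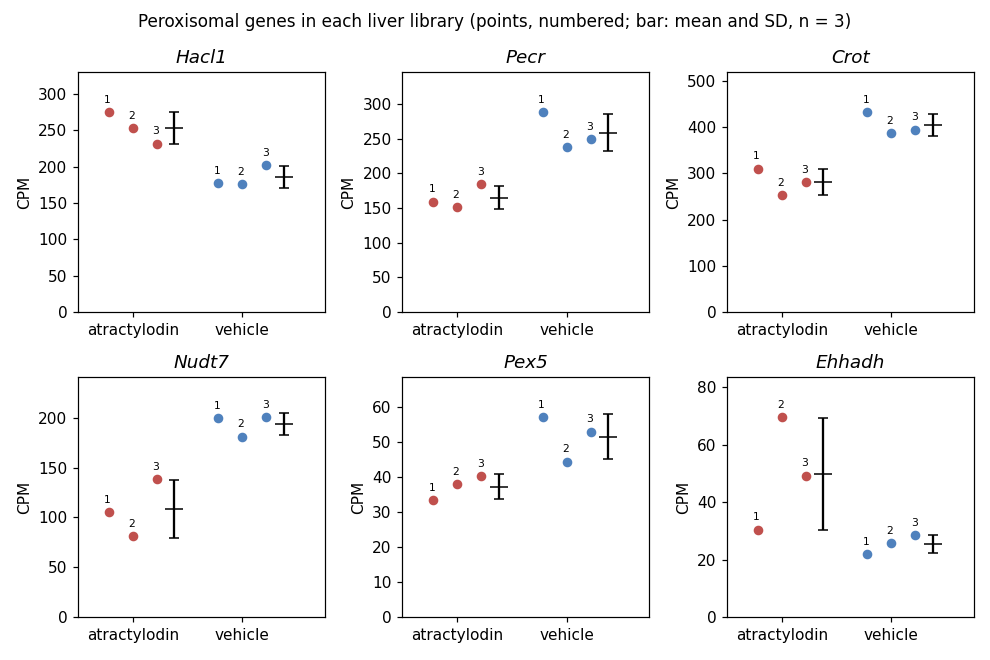
CPM (vertical axis, from 0) of Hacl1, Pecr, Crot, Nudt7, Pex5 and Ehhadh in each library, atractylodin left of vehicle, with points numbered by library and the mean and SD of 3 libraries as a bar. Atractylodin and vehicle points do not overlap for any of the 6 genes, and Ehhadh spans 30.5 to 69.5 CPM among the atractylodin libraries.

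Hacl1 was the member that rose. It encodes the hydroxyacyl-CoA lyase that splits the carbon chain in alpha-oxidation of phytanic acid and in the breakdown of hydroxy fatty acids (chromosome 14, 31598730 to 31641286, minus strand). It stood at 275, 253 and 232 CPM in the atractylodin libraries, against 178, 176 and 203 CPM in the vehicle libraries. The lowest atractylodin value lay above the highest vehicle value. The rise was 1.36-fold (log2 fold change 0.45 ± 0.10, SE, adjusted p = 0.00791 in edgeR). Without vehicle 1 the estimate was 0.42 and the adjusted p 0.0526. Gm49387 overlaps Hacl1 on its own strand and Btd on the opposite one, and counts of overlapping genes may have been split or mixed.

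Phyh, the phytanoyl-CoA hydroxylase that acts just before Hacl1, stood at 1731, 2150 and 1852 CPM with atractylodin and 1579, 1614.5 and 1484 CPM with vehicle. All 3 atractylodin libraries were higher, and the log2 fold change was 0.29 ± 0.10 (SE), but it did not pass (edgeR adjusted p = 0.0911). Without a filter on low counts Phyh passed (edgeR adjusted p = 0.0249). The estimates of Scp2, Amacr and Acox2 were below 0. Scp2, a sterol carrier with a thiolase form, was at 2353, 2482 and 2381 CPM with atractylodin and 2867.5, 2917 and 2699 CPM with vehicle. The groups did not overlap, but Scp2 did not pass (log2 fold change -0.23 ± 0.09, SE, edgeR adjusted p = 0.144). Scaled by total counts alone, it passed (edgeR adjusted p = 0.0456). The racemase gene Amacr and the branched-chain oxidase gene Acox2 had estimates of -0.24 and -0.06 (edgeR adjusted p = 0.231 and 0.774).

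The windows around the transcription starts of the 3 auxiliary enzyme genes that fell and of Hacl1 are shown. These 4 are the enzyme genes that passed the edgeR test. Each window has 300 bases, most of them before the start, on the gene's strand, from RefSeq on GRCm38.p6. The positions are chr1:72284272-72284571 (minus) for Pecr, chr5:8997097-8997396 (minus) for Crot, chr14:31640916-31641215 (minus) for Hacl1, and chr8:114133368-114133667 (plus) for the first of 2 windows of Nudt7.
Pecr: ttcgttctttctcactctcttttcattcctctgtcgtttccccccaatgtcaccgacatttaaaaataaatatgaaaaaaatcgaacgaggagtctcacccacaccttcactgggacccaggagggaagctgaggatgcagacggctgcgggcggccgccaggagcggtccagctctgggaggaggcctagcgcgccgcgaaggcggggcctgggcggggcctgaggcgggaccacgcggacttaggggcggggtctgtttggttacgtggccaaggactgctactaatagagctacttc
Crot: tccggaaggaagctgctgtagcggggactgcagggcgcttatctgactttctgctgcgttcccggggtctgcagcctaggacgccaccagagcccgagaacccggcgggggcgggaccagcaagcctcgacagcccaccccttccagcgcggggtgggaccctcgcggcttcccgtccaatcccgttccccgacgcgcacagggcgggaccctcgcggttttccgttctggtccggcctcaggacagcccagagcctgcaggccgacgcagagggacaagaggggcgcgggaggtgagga
Nudt7: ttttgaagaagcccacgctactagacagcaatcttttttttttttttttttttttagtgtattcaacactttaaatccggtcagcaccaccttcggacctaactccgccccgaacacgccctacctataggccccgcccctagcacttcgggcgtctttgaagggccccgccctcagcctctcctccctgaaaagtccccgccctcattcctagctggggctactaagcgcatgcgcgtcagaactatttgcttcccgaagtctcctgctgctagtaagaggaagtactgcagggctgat
Hacl1: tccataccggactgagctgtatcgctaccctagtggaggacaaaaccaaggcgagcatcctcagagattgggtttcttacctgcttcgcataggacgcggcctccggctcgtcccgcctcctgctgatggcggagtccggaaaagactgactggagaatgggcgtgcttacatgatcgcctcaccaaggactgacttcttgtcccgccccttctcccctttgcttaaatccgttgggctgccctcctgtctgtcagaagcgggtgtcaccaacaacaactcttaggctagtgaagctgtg
The windows were searched for the direct repeat AGGTCA, any 1 base, AGGTCA, the element that PPARalpha binds with its partner RXR, on both strands with up to 2 mismatches. None of the 4 windows holds a match, so none has letters in capitals. Of 40 windows for the 32 members with an entry, 3 hold one, and 3.86% of all 32851 windows do. None of the 40 holds a match with 0 or 1 mismatch, which 0.0396% and 0.554% of all windows do. A lack of match says only that these letters are not in the window.

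The 3 matches lie in the windows of Cat, Acot4 and a downstream start of Acox2, shown here in 31-base stretches with the match in capitals. They are at chr2:103485336-103485366 (minus), chr12:84038357-84038387 (plus, with the repeat on the other strand) and chr14:8258809-8258839 (minus).
Cat: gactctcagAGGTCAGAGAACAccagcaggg
Acot4: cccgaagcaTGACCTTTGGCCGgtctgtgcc
Acox2: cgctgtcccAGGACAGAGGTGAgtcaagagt
None of these 3 genes passed the edgeR test, but neither did most members, 31 of the 36. Any link of the matches to the fold changes was not tested. The G and C content was 58.3% in the window of Pecr, 69.7% in that of Crot, 52% in that of Nudt7 and 56.3% in that of Hacl1, beside a median of 55.3% over the member windows and 52.7% over all windows.

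Pex5 was the peroxin that fell. It encodes the cytosolic receptor that carries proteins with the common targeting signal at their C terminus to the peroxisome (chromosome 6, 124396816 to 124415067, minus strand). It stood at 33.5, 38.01 and 40.3 CPM in the atractylodin libraries, against 57.1, 44.4 and 53.0 CPM in the vehicle libraries. The groups did not overlap, with atractylodin 3 and vehicle 2 the nearest pair. The fall was 1.36-fold (log2 fold change -0.44 ± 0.13, SE, adjusted p = 0.0384 in edgeR). The call was lost without atractylodin 1 (adjusted p = 0.128), atractylodin 2 (0.0751), vehicle 1 (0.141) or vehicle 3 (0.175), with DESeq2 (0.0710), with limma-voom (0.0709) and with the replicate number as a block (0.0535).

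The other 11 peroxins did not pass, with log2 fold changes of -0.43 to 0.14. Pex19, the chaperone of peroxisomal membrane proteins, had 83.4, 78.8 and 83.9 CPM with atractylodin and 88.3, 100.8 and 93.2 CPM with vehicle. All 3 atractylodin libraries were lower, but the estimate of -0.21 ± 0.10 (SE) did not pass (edgeR adjusted p = 0.219). Pex10, a ubiquitin ligase that recycles the import receptor, was the least counted member. It had 7.57, 4.18 and 3.26 CPM with atractylodin and 8.07, 5.32 and 7.44 CPM with vehicle, and the groups overlapped (edgeR adjusted p = 0.480). Its 95% interval of -1.10 to 0.24 on the log2 scale was the widest among the peroxins.

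The remaining peroxins cover the other steps of import and division. The docking proteins Pex13 and Pex14 had estimates of 0.06 and 0.02, and Pex7, the receptor for the second targeting signal, -0.07. The ligase gene Pex2 had -0.23. Pex6, an ATPase that extracts the receptor, had 0.08, and its membrane anchor Pex26 had -0.09. Pex3 and Pex16, which with Pex19 insert membrane proteins, had -0.07 and -0.01. All 8 had adjusted p of 0.548 or more in edgeR. Pex11a, a membrane elongation factor of peroxisome division, is named after its values were seen. It stood at 453, 398 and 324 CPM with atractylodin and 348, 359 and 356 CPM with vehicle. The vehicle libraries lay within 1.03-fold of each other, while atractylodin 1 and 2 were above them and atractylodin 3 below. The log2 fold change was 0.14, with an interval of -0.09 to 0.37 (edgeR adjusted p = 0.497).

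All 4 genes of the core beta-oxidation spiral had estimates above 0, and none passed. In this group 2 had an unadjusted p under 0.05 in edgeR, where 21.5% of all rows did. Ehhadh, the L-bifunctional enzyme that carries out the hydration and dehydrogenation steps, had the highest estimate of the 36 members. It stood at 30.5, 69.5 and 49.3 CPM in the atractylodin libraries, against 22.1, 25.8 and 28.5 CPM in the vehicle libraries. The groups did not overlap, but atractylodin 1 lay close to vehicle 3 and atractylodin 2 was 2.28 times as high as atractylodin 1. The log2 fold change was 0.93, with a 95% interval of 0.13 to 1.73, and the edgeR adjusted p was 0.177. It passed with DESeq2 (adjusted p = 0.00244), without a filter on low counts (0.000121), with the replicate number as a block (0.00335) and without atractylodin 1 (0.000135). In the other 10 alternatives it did not pass, with limma-voom among them (0.0862).

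Acaa1a and Acaa1b encode the ketoacyl-CoA thiolases of the last step. Acaa1a was at 338, 348 and 263 CPM with atractylodin and 272, 255 and 242 CPM with vehicle. Atractylodin 3 fell within the vehicle range, and the log2 fold change of 0.31 ± 0.11 (SE) did not pass (edgeR adjusted p = 0.0953), though it did without atractylodin 3 (0.0162) and without a filter on low counts (0.0239). Acaa1b, named after its values were seen, was at 2362, 2189 and 1523 CPM with atractylodin and 1889, 1941 and 1730 CPM with vehicle. Its atractylodin libraries lay on both sides of the vehicle range (log2 fold change 0.13, interval -0.18 to 0.43, edgeR adjusted p = 0.656). Hsd17b4, the D-bifunctional enzyme, had an estimate of 0.09 (edgeR adjusted p = 0.634).

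The 2 thiolases are near-identical, and a 3' read may match both. Of the 50-base words in the last 300 bases of the longest coding transcript in GENCODE M21, read on both strands, 40.2% of those of Acaa1a also occur in Acaa1b. For Acaa1b, 90.4% occur in Acaa1a or in Dlec1, a gene that overlaps it on the opposite strand. Acaa1b took 87.5%, 86.3% and 85.3% of the counts of the pair in the atractylodin libraries, against 87.4%, 88.4% and 87.7% in the vehicle libraries. The groups overlapped narrowly, at atractylodin 1 and vehicle 1. The means were 86.3% ± 1.12 with atractylodin and 87.8% ± 0.49 with vehicle (SD, n = 3 each, exact two-sided permutation p = 0.2, where 0.1 is the smallest this design can give). Other shared 3' ends among the members were those of Scp2 (79.3% of words, with the pseudogene Scp2-ps2), Acot8 (77.7%, with its opposite-strand neighbour Snx21), Decr2 (15.1%) and Acot4 (7.57%). No such word was shared by Pecr, Crot, Nudt7, Hacl1, Pex5 or Ehhadh.

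Of the 5 oxidases and other matrix enzymes none passed in edgeR, DESeq2 or limma-voom. In edgeR 2 of them had an unadjusted p under 0.05, where 21.5% of all rows did. Lonp2, the protease that processes and degrades matrix proteins, came nearest. It stood at 239.9, 241.7 and 259.9 CPM in the atractylodin libraries, against 285, 304 and 308 CPM in the vehicle libraries. The groups were apart, and the log2 fold change was -0.28 ± 0.09 (SE, edgeR adjusted p = 0.0682). It passed when libraries were scaled by total counts alone (adjusted p = 0.0204).

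Uox, the urate oxidase of the peroxisomal core in rodents, was at 1248, 1361 and 1213 CPM with atractylodin and 1092, 1116 and 1039.6 CPM with vehicle. All atractylodin libraries were higher (log2 fold change 0.23 ± 0.09, SE, edgeR adjusted p = 0.146). Cat, the catalase gene named after its values were seen, varied least among libraries of a group. It was at 1582, 1627 and 1624.5 CPM with atractylodin and 1754, 1714 and 1703.5 CPM with vehicle, without overlap. The difference was small, a log2 fold change of -0.10 with an interval of -0.29 to 0.09 (edgeR adjusted p = 0.584). Hao1, glycolate oxidase, and Agxt, the aminotransferase that removes the glyoxylate it makes, had estimates of -0.08 and -0.06 with overlapping groups. Abcd3, the transporter that brings fatty acyl-CoA through the membrane, was at 984, 943 and 785 CPM with atractylodin and 791, 839 and 925 CPM with vehicle, with overlap (log2 fold change 0.08, interval -0.14 to 0.30, edgeR adjusted p = 0.696).

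**Figure D3:**
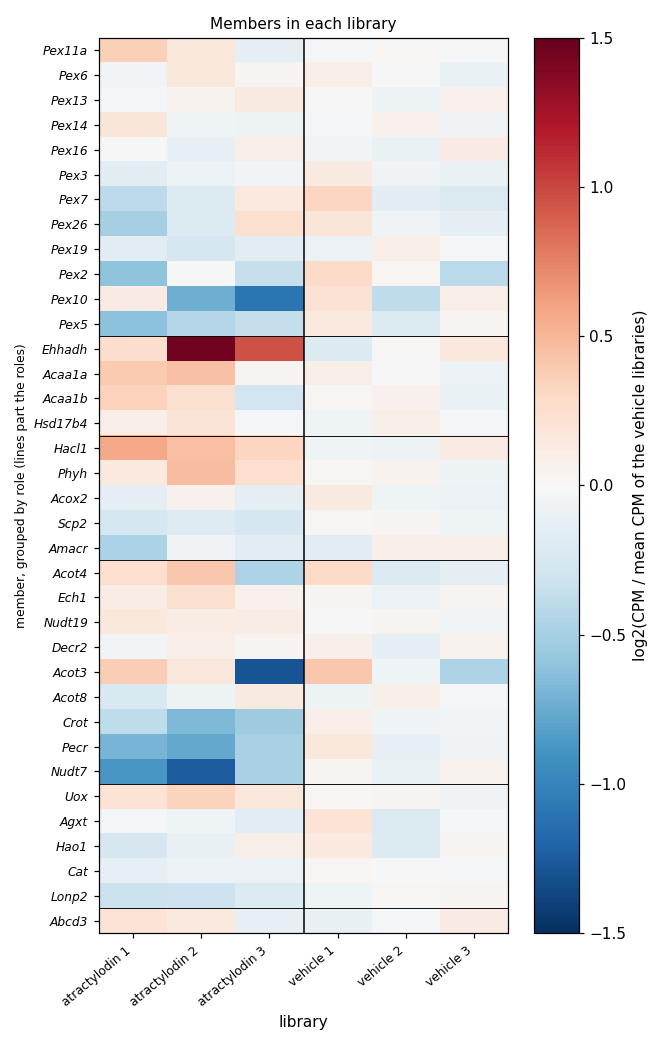
Level of each member (rows, grouped by role) in each library (columns, atractylodin left of vehicle), as log2 of its CPM over the mean CPM of the vehicle libraries. Pecr, Crot and Nudt7 are lower in all 3 atractylodin libraries and Hacl1 higher in all 3, while Acot3, Acot4 and Acaa1b are higher in atractylodin 1 and 2 and lower in atractylodin 3.

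The members varied more among atractylodin than among vehicle libraries. The coefficient of variation had a median of 10.1% over the 36 members with atractylodin and 7.34% with vehicle, and it was larger with atractylodin for 24 of the 36. It exceeded 15% for 10 members with atractylodin and for 5 with vehicle. The same values were not taken over all rows, so whether this spread is particular to the members was not tested. Acot3, an acyl-CoA thioesterase of the Acot cluster on chromosome 12 and named after its values were seen, had 65.9, 57.4 and 20.8 CPM in atractylodin 1 to 3 and 67.3, 48.6 and 37.1 CPM in vehicle 1 to 3. Its interval of -1.49 to 1.44 on the log2 scale was the widest of all members. Its neighbour Acot4 had 36.7, 40.7 and 22.4 CPM with atractylodin and 37.7, 26.6 and 28.1 CPM with vehicle. Atractylodin 3 was the lowest library of its group for 13 of the 36 members, atractylodin 1 for 17 and atractylodin 2 for 6.

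The rest of the organelle's genes were followed by a list of 44, of which 41 were tested. None rose and 1 fell, which is 2.44% of the 41, beside 7.25% of all rows. Libraries did not overlap for 10 of the 41, which is 24.4% beside 26.2% of all rows. In edgeR 8 had an unadjusted p under 0.05, where 21.5% of all rows did. The median log2 fold change was 0.01. The fall was that of Pex11g, a membrane protein of the peroxisome division family. It stood at 33.6, 41.4 and 33.5 CPM in the atractylodin libraries, against 74.8, 48.8 and 51.8 CPM in the vehicle libraries. The groups did not overlap, with vehicle 1 the farthest from the rest (log2 fold change -0.64 ± 0.15, SE, edgeR adjusted p = 0.0174). The call was lost without atractylodin 1, atractylodin 3 or vehicle 1 (adjusted p up to 0.0622).

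Known targets of PPARalpha outside the members were listed separately, since the receptor also induces peroxisomal beta-oxidation in mouse liver. This list also holds Ppara itself, Rxra, which encodes a form of its partner RXR, and Ppargc1a. It shares Acsl1 with the list of other peroxisomal genes. Of 34 tested, 8 rose and 1 fell, which is 26.5% beside 7.25% of all rows, and the median log2 fold change was 0.18. The rises with the smallest p were those of Angptl4, Cyp4a31, Cyp4a10, Cyp4a14 and Vnn1, with log2 fold changes of 0.47 to 0.85, and the fall was that of Cd36 at -0.73. Vnn1 had the largest p of these 5 rises, and the rule for named genes did not single it out. It encodes pantetheinase, which cleaves pantetheine, a breakdown product of coenzyme A. It stood at 201, 164 and 182 CPM with atractylodin, against 132, 130 and 133 CPM with vehicle, without overlap (log2 fold change 0.47 ± 0.10, SE, edgeR adjusted p = 0.00564). The other 3 that rose were Fgf21, Pdk4 and Slc22a5. Leaving out 1 library gave 6 to 11 calls among the targets, against 9, with the fewest without vehicle 2. Without vehicle 2 the calls of Cyp4a14 (adjusted p = 0.0617), Cd36 (0.0611) and Slc22a5 (0.230) were lost, and without vehicle 1 those of Cd36 (0.0771) and Slc22a5 (0.128). Slc22a5 was also lost without atractylodin 1 (0.101) or atractylodin 2 (0.147), and Pdk4 without atractylodin 3 (0.0595) or vehicle 3 (0.101). DESeq2 (0.0751), limma-voom (0.0808) and the replicate block (0.0840) did not call Slc22a5 either, nor did upper quartile factors, total counts alone or a minimum mean of 5 CPM. The block did not call Cd36 (0.0508). Ppara itself was at 806, 806 and 707 CPM with atractylodin and 650, 607 and 625 CPM with vehicle, and did not pass (log2 fold change 0.30, edgeR adjusted p = 0.0593). Atractylodin 3 was the lowest of its group for 22 of the 34 targets. The members, the other peroxisomal genes and these targets were not tested against each other.

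**Figure D4:**
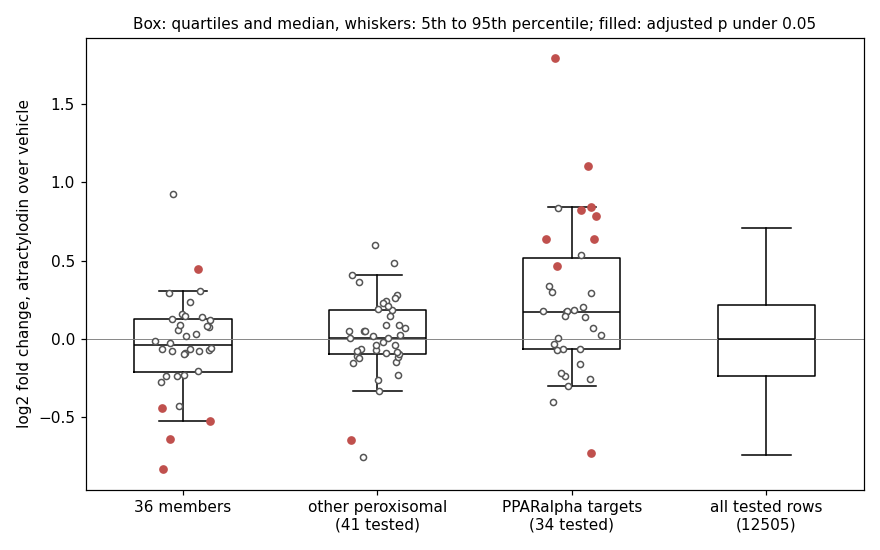
Log2 fold change, atractylodin over vehicle, of the 36 members, the 41 other peroxisomal genes, the 34 PPARalpha targets outside the members and all 12505 rows, as boxes (quartiles and median) with whiskers at the 5th and 95th percentiles. Filled points passed an adjusted p of 0.05; the medians are -0.04, 0.01, 0.18 and -0.0015.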

How the data were processed

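Raw counts per gene symbol were deposited by the authors for 6 liver libraries, and nothing in them was normalized. Libraries were made from Trizol-extracted total RNA with the Lexogen QuantSeq kit, which reads the 3' end of transcripts, per the labels' protocols. Bowtie2, bedtools and build mm10 are named per the submitters' processing notes. The annotation, the strand setting, and the treatment of reads with several matches or of molecular identifiers are not given in the sources used here. Floors of 3 counts (0.243 to 1.61 CPM) cover counting error only.

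Groups and numbers came from sample titles. Of the 23282 rows, 44 repeat a symbol. In edgeR 4.0.16 under R 4.3.3, filterByExpr kept 12505 rows, TMM set the scale, and the quasi-likelihood test with robust dispersion gave p-values, adjusted by Benjamini-Hochberg with a threshold of 0.05. SE is the log2 fold change over the square root of F, and 95% intervals use the degrees of freedom of that test. The fit was checked on simulated counts. Libraries differed beyond counting noise (chi-square per degree of freedom at least 2.75 over rows with 10 or more counts), so none was a copy. Alternatives were DESeq2 1.42.0, limma-voom (limma 3.58.1), other scalings and filters, a replicate block and leaving out each library. No batch or date is labelled.

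The members and lists were chosen with earlier results of these data known. The rule for named genes gave values per library for members that passed and for the 2 smallest p in each role among the rest, and named at most 5 passing genes each way of the further lists. Positions are from GENCODE M21 (GRCm38, the build also called mm10), where 9 members share their strand with an overlapping gene and 19 have one opposite. Targeting signals in the proteins were planned but not analysed here. Figures used matplotlib 3.10.9 under Python 3.11.15.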

Additional observations from a re-analysis of the deposited data

How the results depend on the processing

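The calls of Pecr, Crot, Hacl1 and Nudt7 were made in all 8 alternatives other than leaving out a library. With 1 library left out, Pecr and Crot were called in 6 of 6 fits, Hacl1 in 5 and Nudt7 in 2. Pex5 was called in 5 of the 8 and in 2 of the 6. DESeq2 called 2 members higher, the fit without a filter 4, and the fit with the replicate block 2, against 1 higher in the fit reported. Leaving out 1 library gave 0 to 2 members higher and 2 to 4 lower, against 4 lower. Over all rows it gave 467 to 751 calls (236 to 400 higher, 215 to 362 lower), against 906. Scaling by total counts alone called 312 rows higher and 707 lower, against 490 and 416. That scaling moved the median of all rows by -0.09 and that of the members to -0.123, and without 1 library the members' median was -0.0549 to 0.0201. Other peroxisomal genes had 2 calls with DESeq2, with total counts alone and without a filter, and 0 to 1 without 1 library. The PPARalpha targets had 6 to 12 calls over all alternatives, against 9. Estimates near 0 changed sign under total counts alone for Pex6 (-0.0105), Pex13 (-0.0297), Pex14 (-0.0654) and Decr2 (-0.0472). With 1 library left out, estimates ranged from -0.229 to 0.0673 for Pex7, -0.0651 to 0.0654 for Pex14, -0.0680 to 0.0744 for Pex16, -0.313 to 0.0722 for Pex26, -0.126 to 0.00720 for Acox2, -0.320 to 0.354 for Acot3, -0.00574 to 0.393 for Acot4, -0.157 to 0.0295 for Acot8, -0.0284 to 0.0762 for Decr2, -0.172 to 0.00551 for Hao1 and -0.162 to 0.0300 for Agxt. The cause of these changes was not tested. Same-numbered libraries share only that number and correlated at -0.089 to 0.022 in their deviations from the group means, and the replicate block called 811 rows against 906 without it. Depth limits Pex10 most, with 15 counts in vehicle 1.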
